A study of Saccharomyces cerevisiae with 18 samples.

Results

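The mitochondrial ribosomal protein genes described here are the 55 genes whose symbols consist of MRP, MRPL or MRPS and a number, out of 5449 genes measured. All 55 were read by 1 probe set each on Affymetrix yeast arrays, and 37 encode proteins of the large subunit and 17 of the small subunit. MRP8 was assigned to neither, because its place in the mitochondrial ribosome is not settled. By textbook knowledge, 36 of the proteins have a counterpart in bacterial ribosomes and 18 are specific to mitochondria. MRP4 and MRPL6 lie on chromosome VIII. They stay in all counts of the 55 and are also described on their own where strains are compared.

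Mitochondrial ribosomes translate the few proteins that yeast mitochondrial DNA still encodes, most of them core subunits of the respiratory chain and the ATP synthase. Their protein subunits are nearly all encoded in the nucleus, made in the cytosol and imported, while their RNAs are made inside the organelle. The mRNAs of many of these proteins are bound by the RNA-binding protein Puf3, and the nuclear genes of the respiratory chain are activated by the Hap2/3/4/5 complex, whose limiting subunit Hap4 is made when glucose runs low. Snf1 is the yeast relative of mammalian AMP-activated protein kinase (AMPK) and is needed for the expression of many glucose-repressed genes.

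Every strain lacked chromosomal SNF1 and carried a plasmid. The Alpha1 strain expressed HA-Alpha1, in which the catalytic domain of the AMPK Alpha1 subunit is joined to the regulatory domain of Snf1. The T210A strain expressed HA-T210A, a Snf1 whose phosphorylated activation-site threonine is replaced by alanine, and the Snf1 strain, used as the reference by the submitters, expressed HA-Snf1. Each was sampled from aerobic 1-litre bioreactors at 30 °C and pH 5.0, begun with 40 g/L glucose, at 5 g/L (low) or 15 to 20 g/L (high) residual glucose. Each of the 6 groups had 3 arrays. The labels call these biological replicates at steady state and do not say whether they came from separate cultures, so the p-values measure the spread between these samples.

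Values are log2 signals, and differences are given on the log2 scale ± SE from limma's moderated test, with n = 3 arrays per group and a Benjamini-Hochberg adjusted p over all 5449 genes. A gene is said to have risen or fallen only where that adjusted p was under 0.05. Array medians lay between 6.77 and 7.03. Within a group, the correlation between arrays was 0.992 to 0.998, but 0.978 to 0.984 in Alpha1 at low glucose. Mean signals of the members over the 18 arrays ran from 7.45 for MRPS5 to 10.16 for MRP8, and none of the 55 had a mean under 5. With chromosomal SNF1 absent from every strain, the SNF1 probe set is taken to read plasmid transcripts. It gave 12.69 to 13.17 in Alpha1 at low and 12.30 to 12.46 at high glucose. In T210A it gave 9.16 to 9.52 at low and 6.93 to 7.25 at high, and in Snf1 8.44 to 8.74 at low and 7.06 to 7.31 at high. The high SNF1 signal of the Alpha1 arrays sets them apart from all other arrays, so Alpha1 differed in this signal as well as in its construct.

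In the Snf1 strain all 55 mitochondrial ribosomal protein genes were higher at low than at high glucose, where 34.7% of all genes were called higher and 32.7% lower. Their median difference was 1.00, against 0.00 over all genes, and the individual differences ran from 0.72 for MRPL32 to 2.02 for MRP8. In every one of the 55 the 3 low-glucose arrays lay above the 3 high-glucose arrays, a separation seen in 37.6% of all genes. In total RNA from a culture, a change in transcript per cell and a change in the mix of cells cannot be told apart. Both glucose levels were residual levels in cultures begun with 40 g/L, so glucose level and stage of the culture cannot be told apart either, in any strain. The large subunit genes had a median of 1.07 and the small subunit genes one of 0.96.

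MRP8 showed the largest difference of the 55. Its levels were 11.38, 11.30 and 11.33 in Snf1 at low glucose and 9.22, 9.40 and 9.31 at high glucose. The arrays of a group lay within a narrow band, and the low-glucose level was 4.07-fold higher (2.02 ± 0.11, adjusted p = 1.43e-09). MRPL4, the large subunit protein related to bacterial L29, had 9.14, 9.37 and 9.37 at low glucose against 7.57, 7.74 and 7.83 at high glucose, a difference of 1.58 ± 0.15 (adjusted p = 4.48e-07). MRPL38, related to bacterial L14, rose by 1.52 ± 0.12, and MRPL39, related to bacterial L33, by 1.41 ± 0.12. MRPS5, related to bacterial S5, led the small subunit with 8.35, 8.36 and 8.56 at low glucose and 6.92, 7.00 and 7.14 at high glucose (1.40 ± 0.09, adjusted p = 9.28e-09). None of these groups overlapped.

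The Alpha1 strain also had all 55 genes higher at low glucose, beside 34.3% of all genes called higher and 29.2% lower, with no overlap between the 2 groups of arrays in any of them (32.8% of all genes). The median difference was 0.92 and the range 0.51 to 1.72. MRP8 stood first again, with 10.59, 10.81 and 11.23 at low glucose and 9.16, 9.13 and 9.17 at high glucose (1.72 ± 0.11, adjusted p = 1.53e-08). Its low-glucose arrays spread more widely than those of the Snf1 strain. The next largest were MRPL4 (1.39 ± 0.15), MRP20, related to bacterial L23 (1.32 ± 0.10), MRPL38 (1.31 ± 0.12) and MRP49, a mitochondria-specific protein of the large subunit (1.25 ± 0.09). MRP20 had 8.14, 8.38 and 8.56 at low glucose against 6.95, 7.02 and 7.16 at high glucose.

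In the T210A strain 39 of the 55 genes were higher at low glucose, 0 were lower and 16 were not called, beside 37.7% of all genes called higher and 32.8% lower. The median difference was 0.39 and the range 0.02 to 1.68. The arrays of the 2 glucose levels did not overlap in 44 genes, all with the low-glucose arrays above, against 41.3% of all genes. The genes that rose were 27 of 37 from the large subunit, 11 of 17 from the small subunit, and MRP8. Of those with a bacterial counterpart 29 of 36 rose (median 0.41), and of the mitochondria-specific ones 9 of 18 (median 0.28). This count depends on the scaling. The median of all genes was 0.04 in this comparison and moved by -0.12 with each array centred on its median. Then 24 members were called higher, 0 lower, and 49 of the 55 differences were above 0, as they were with quantile normalization.

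MRP8 led the T210A response, with 10.97, 11.00 and 11.00 at low glucose and 9.27, 9.33 and 9.33 at high glucose (1.68 ± 0.11, adjusted p = 1.78e-08). MRPL38 followed, with 9.95, 9.80 and 10.02 at low glucose and 8.68, 8.75 and 8.98 at high glucose (1.12 ± 0.12). MRPL33, related to bacterial L30, had 9.44, 9.15 and 9.33 at low against 8.24, 8.18 and 8.32 at high glucose (1.06 ± 0.11). The low-glucose arrays were the higher ones throughout for these 3 genes. MRP49 (0.97 ± 0.09) and MRPS12, related to the bacterial decoding-site protein S12 (0.87 ± 0.09), completed the first 5.

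At the other end, several genes had nearly equal signals at both glucose levels in T210A. The mitochondria-specific large subunit gene MRPL13 had 8.73, 8.56 and 8.81 at low glucose and 8.63, 8.67 and 8.74 at high glucose. These arrays overlapped, and the difference was 0.02, with a 95% interval of -0.23 to 0.26 (adjusted p = 0.941). In the Snf1 strain the same gene had 9.63, 9.76 and 9.80 at low and 8.72, 8.85 and 8.91 at high glucose. The remaining genes closest to 0 in T210A were MRPL37 (0.04 ± 0.11), MRPL32, related to bacterial L32 (0.05 ± 0.17), MRP4, related to bacterial S2 (0.09 ± 0.20), and MRPL20 (0.09). MRPL32 had 8.81, 8.58 and 8.88 at low glucose against 8.77, 8.49 and 8.84 at high glucose, so its arrays overlapped as well. MRP4, on chromosome VIII, had means of 8.66 at low and 8.57 at high glucose in T210A, against 8.61 and 7.80 in Snf1.

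**Figure D1:**
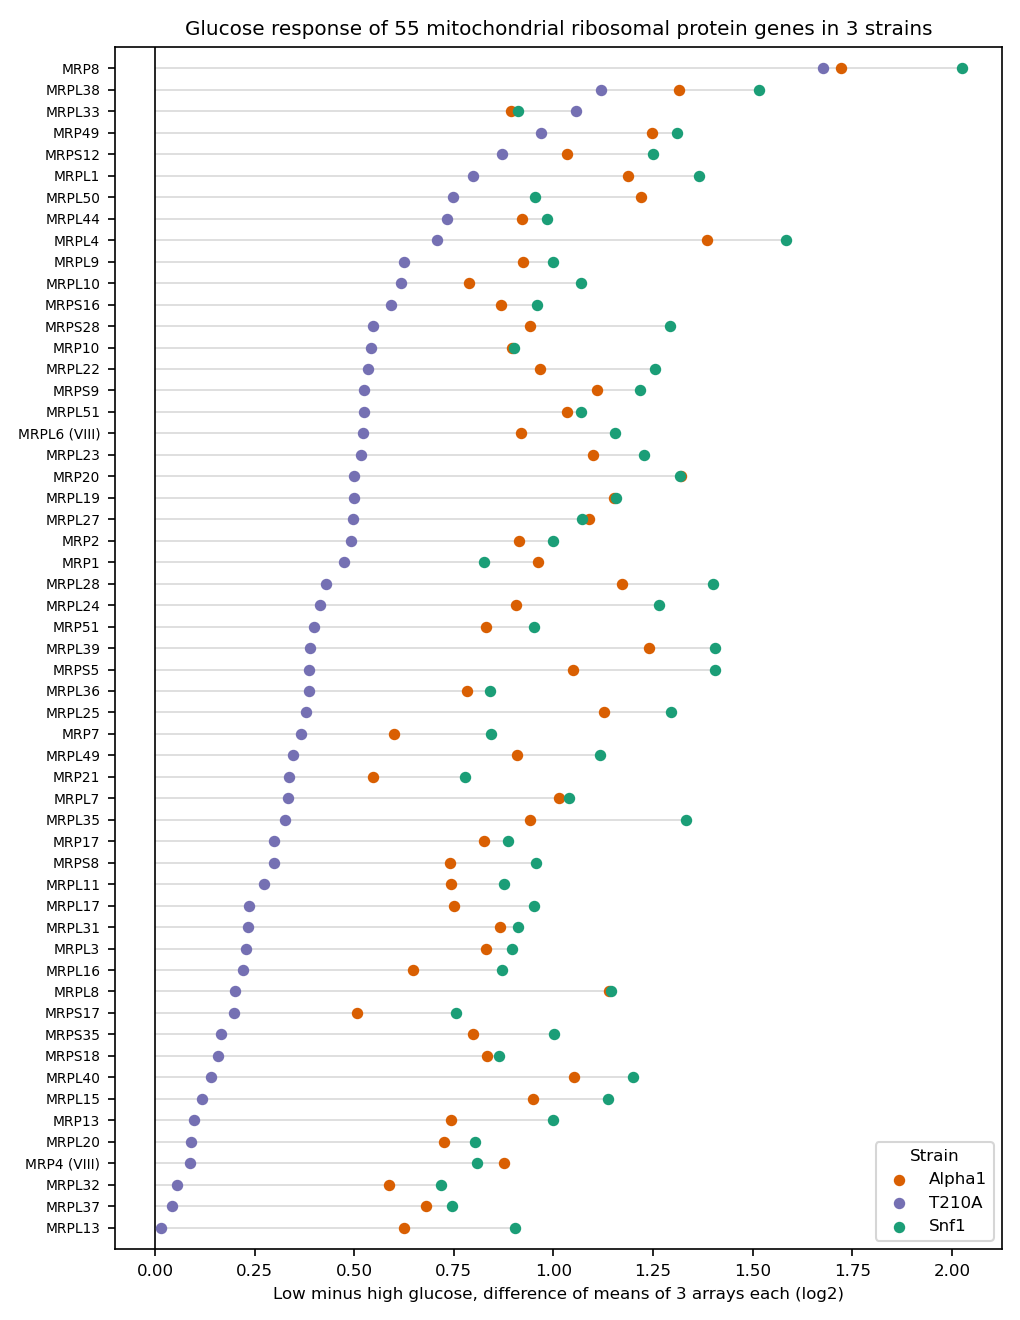
Low minus high glucose (log2 difference of the means of 3 arrays each, x axis) for each of the 55 genes (y axis, ordered by the T210A value), with 1 point per strain. The Alpha1 and Snf1 points lie near each other, with medians of 0.92 and 1.00, while most T210A points lie lower, with a median of 0.39.

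The responses of the strains were then compared with each other by testing the difference of the differences. The T210A response was smaller than the Snf1 response in 43 of 55 genes, larger in 0 and not called different in 12, where 18.3% of all genes had a smaller response in T210A and 21.2% a larger one. The median difference between the 2 responses was -0.66, and MRPL33 alone of the 55 had a positive one (0.15 ± 0.15, not called). The 43 comprised 31 of 37 large subunit and 12 of 17 small subunit genes, with MRPL6 on chromosome VIII among them. MRPL40, related to bacterial L24, had 7.47, 7.42 and 7.64 in T210A at low and 7.33, 7.36 and 7.42 at high glucose, against 8.65, 8.66 and 8.60 in Snf1 at low and 7.31, 7.49 and 7.53 at high glucose. The high-glucose arrays of both strains intermingled while the low-glucose arrays stood far apart, and the response differed by -1.06 ± 0.14 (adjusted p = 6.15e-05). The next were the mitochondria-specific MRPL15, with MRPS5 and MRPL39, each with a difference of -1.02 (SE 0.17, 0.13 and 0.17 in that order).

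MRPL15 had 7.57, 7.54 and 7.73 in T210A at low and 7.49, 7.39 and 7.60 at high glucose, against 8.93, 8.78 and 8.76 in Snf1 at low and 7.65, 7.56 and 7.85 at high glucose. MRPS5 had 7.32, 7.25 and 7.35 in T210A at low and 6.87, 6.87 and 7.03 at high glucose. In T210A the MRPL15 arrays overlapped between glucose levels and the MRPS5 arrays did not. MRPS5 rose in T210A by 0.39 ± 0.09, and MRPL15 had a difference of 0.12 ± 0.12 that was not called.

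The Alpha1 response was larger than the T210A response in 29 of 55 genes and smaller in 0, where 10.9% of all genes had a larger response in Alpha1 and 9.41% a smaller one (median difference 0.51). It shares the T210A arrays with the preceding comparison. MRPL8, related to bacterial L17, had 9.58, 9.62 and 10.07 in Alpha1 at low and 8.70, 8.52 and 8.63 at high glucose, against 8.91, 8.79 and 9.10 in T210A at low and 8.74, 8.74 and 8.71 at high glucose. Its response differed by 0.94 ± 0.18 (adjusted p = 0.00233), that of MRPL40 by 0.91 ± 0.14, of MRPL39 by 0.85 ± 0.17 and of MRPL15 by 0.83 ± 0.17. Without T210A high replicate 3 the count of genes was 19.

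The Alpha1 and Snf1 responses differed at an adjusted p under 0.05 in 0 of the 55 genes, beside 9.32% of all genes called larger in Alpha1 and 4.37% smaller. At an unadjusted p under 0.05 there were 6. The shares of all genes given here are for the adjusted p, so nothing is read from the 6. The median difference was -0.13 and the range -0.39 to 0.27. For MRPL35, at the lower end, the 95% interval was -0.76 to -0.02, so the absence of calls does not show equal responses. Without Alpha1 low replicate 3 the count was 11, and with the replicate number as a block 4, all with the smaller response in Alpha1. Ordered by the fitted values, with no test, the Snf1 response was the largest of the 3 in 49 genes, the Alpha1 response in 5 and the T210A response in 1, and the T210A response was the smallest in 54.

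At low glucose T210A had lower signals than Snf1 in 51 of the 55 genes and higher ones in 0, where 26.5% of all genes were called lower and 29.7% higher. The median difference was -0.83 and the range -1.26 to 0.04. In 52 genes the T210A arrays all lay below the Snf1 arrays, as in 31.7% of all genes. MRPL39 had 9.57, 9.27 and 9.51 in T210A against 10.80, 10.60 and 10.72 in Snf1, a difference of -1.26 ± 0.12, or 2.39-fold lower (adjusted p = 9.97e-07). MRPL32 had 8.81, 8.58 and 8.88 in T210A against 10.15, 9.87 and 9.93 in Snf1 (-1.23 ± 0.17). These arrays lay apart by more than the spread within either group. The next largest differences were those of MRPL15 (-1.21 ± 0.12), MRPL4 (-1.18 ± 0.15) and MRPL8 (-1.16 ± 0.13).

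The 4 genes not called were MRPL44, MRPL6, MRPL33 and MRP4. MRPL33 had 9.44, 9.15 and 9.33 in T210A and 9.23, 9.21 and 9.37 in Snf1, with a difference of 0.04 and a 95% interval of -0.19 to 0.27. The groups overlapped for MRPL33, MRPL6 and MRP4, and for MRPL44 the T210A arrays lay below the Snf1 arrays (-0.32 ± 0.14, adjusted p = 0.0684). MRP8 fell by 0.35 ± 0.11 on the log2 scale (adjusted p = 0.0168), which was among the smaller differences called. Its adjusted p ranged from 1.12e-05 to 0.0507 over the alternatives.

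**Figure D2:**
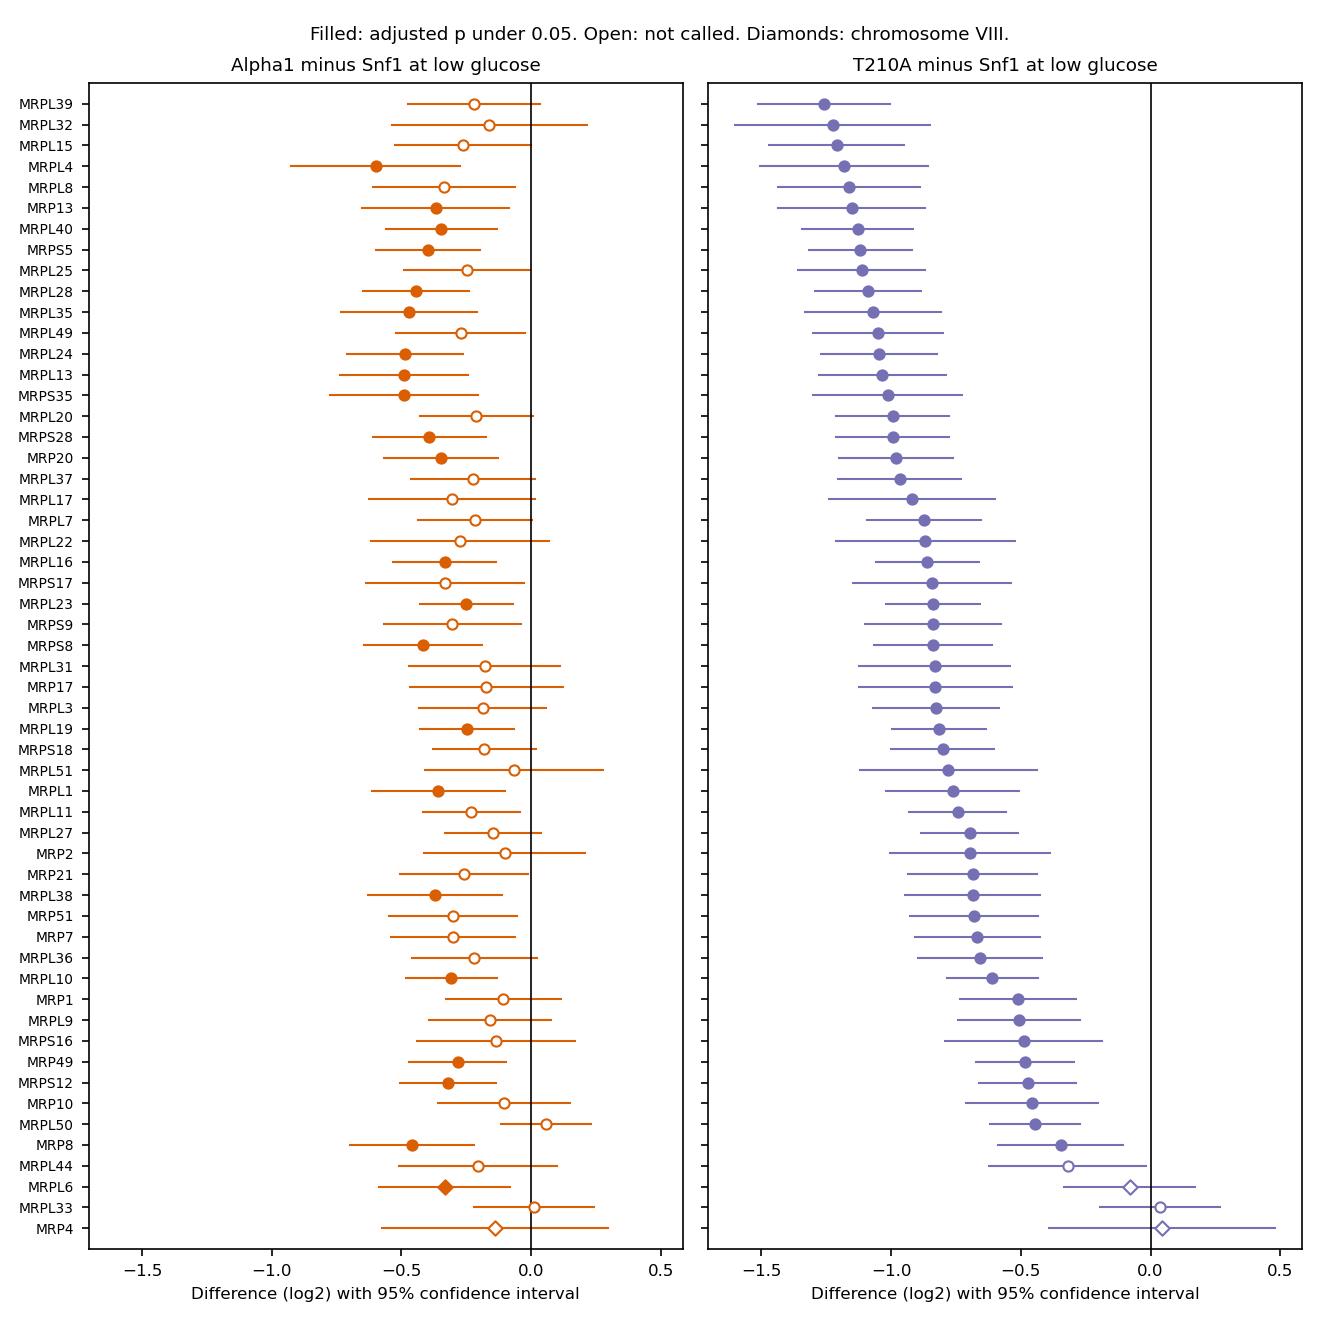
Alpha1 minus Snf1 (left) and T210A minus Snf1 (right) at low glucose for the 55 genes (log2 differences with 95% intervals from limma, filled where the adjusted p was under 0.05, diamonds for chromosome VIII), which share the Snf1 arrays. The Alpha1 points have a median of -0.27 and the T210A points one of -0.83, and MRPL33 lies close to 0 in both.

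Alpha1 at low glucose had signals below those of Snf1 in 22 of the 55 genes and above in 0, where 12.9% of all genes were called lower and 17% higher. The median difference was -0.27 and the range -0.60 to 0.06, and in 20 genes the Alpha1 arrays lay wholly below the Snf1 arrays (14.6% of all genes). MRPL4 had 8.53, 8.48 and 9.08 in Alpha1 against 9.14, 9.37 and 9.37 in Snf1 (-0.60 ± 0.15, adjusted p = 0.00853). One Alpha1 array came close to the lowest Snf1 array and the others lay well below it. MRPS35 (-0.49 ± 0.13), MRPL13 (-0.49 ± 0.11), MRPL24, related to bacterial L28 (-0.49 ± 0.10), and MRPL35 (-0.47 ± 0.12) followed. For MRPL35 the arrays of the 2 strains overlapped. MRP8 was lower too (-0.46 ± 0.11, adjusted p = 0.00693). The count was 32 without Alpha1 low replicate 3, 12 without Snf1 low replicate 3, 13 without Alpha1 low replicate 2 and 2 when those groups were fitted on their own, and it was 9 with array weights, where Alpha1 low replicates 1 and 2 had the lowest weights of the 18 arrays (0.160 and 0.194).

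Set directly against T210A, Alpha1 at low glucose was higher in 46 of the 55 genes and lower in 0, where 20.8% of all genes were called higher and 20.8% lower (median 0.56). The Alpha1 arrays lay wholly above the T210A arrays in 48 genes (22.2% of all genes). MRPL32 had 10.09, 9.58 and 9.79 in Alpha1 against 8.81, 8.58 and 8.88 in T210A (1.06 ± 0.17), and MRPL39 had 10.59, 10.30 and 10.57 in Alpha1 against 9.57, 9.27 and 9.51 in T210A (1.04 ± 0.12). In both the lowest Alpha1 array exceeded the highest T210A array. MRPL15 (0.95 ± 0.12), MRPL25 (0.87 ± 0.11) and MRPL8 (0.83 ± 0.13) came next. The count of genes called was 32 when those groups were fitted on their own, 49 with the replicate number as a block and 42 to 47 with 1 array left out.

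**Figure D3:**
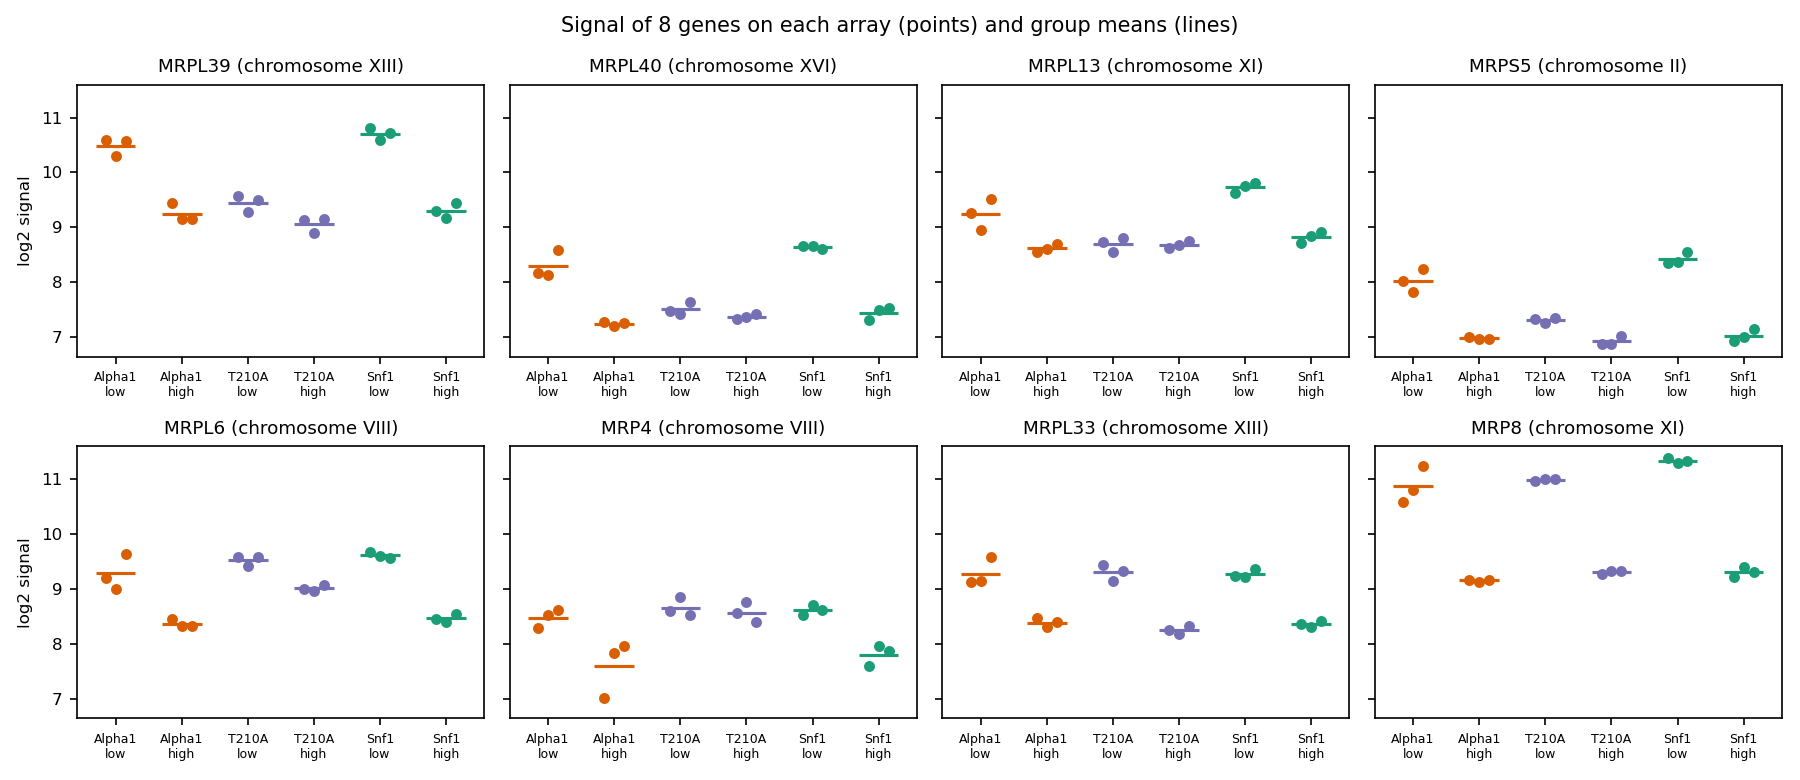
Log2 signal of 8 mitochondrial ribosomal protein genes on each of the 18 arrays, with the low-glucose group of each strain left of its high-glucose group and bars at the group means. For MRPL39, MRPL40 and MRPS5 the T210A arrays at low glucose lie well below those of Alpha1 and Snf1, while for MRPL33 the 3 strains lie at similar levels.

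At high glucose the strains lay close together. Alpha1 differed from Snf1 in 0 of the 55 genes by limma's adjusted p, beside 0.312% of all genes called higher and 0.606% called lower, and in 9 at an unadjusted p under 0.05. The median difference was -0.12, with 53 of 55 differences below 0, and the Alpha1 arrays lay wholly below the Snf1 arrays in 15 genes (9.49% of all genes). T210A was higher than Snf1 in 1 gene, MRPL6, and lower in 0, where 3.56% of all genes were called higher and 0.624% lower (median -0.16, 10 genes at an unadjusted p under 0.05). With the replicate number as a block, which pairs the arrays of these groups, there were 5 calls, 2 higher and 3 lower. Alpha1 was lower than T210A in 2 genes, MRP4 and MRPL6, and higher in 0, where 4.81% of all genes were called lower and 1.5% higher (median 0.04). All these shares are for the adjusted p, so nothing is read from the 9 and 10 genes at an unadjusted p under 0.05.

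MRP4 and MRPL6 are the only members on chromosome VIII. In T210A at high glucose 181 of the 261 genes measured on that chromosome were higher than in Snf1, with a median difference of 0.74 over the chromosome, and at low glucose 172 were higher (median 0.57). Of all genes, 3.56% were called higher in T210A at high glucose and 29.7% at low glucose. MRPL6, related to bacterial L6, had 9.0, 8.97 and 9.06 in T210A against 8.44, 8.40 and 8.54 in Snf1 at high glucose (0.55 ± 0.12, adjusted p = 0.0126). The groups did not overlap. The call was lost without T210A high replicate 3 or either of Snf1 high replicates 1 and 2, and the adjusted p ranged from 2.63e-05 to 0.0595. MRP4 had 8.55, 8.75 and 8.40 in T210A against 7.59, 7.95 and 7.87 in Snf1 (0.77 ± 0.20, adjusted p = 0.0514, range 0.000641 to 0.239 over the alternatives), again without overlap. Whether the raised level of the chromosome accounts for these values was not tested.

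Against Alpha1, the same genes showed the same order at high glucose. MRP4 had 7.01, 7.83 and 7.96 in Alpha1 against 8.55, 8.75 and 8.40 in T210A (-0.97 ± 0.20, adjusted p = 0.00863), and MRPL6 had 8.44, 8.32 and 8.32 in Alpha1 against 9.0, 8.97 and 9.06 in T210A (-0.65 ± 0.12, adjusted p = 0.00306). The first Alpha1 array of MRP4 stood far below the other two, and its SD of 0.517 was the largest of any member in that group. When those groups were fitted on their own, the adjusted p for MRP4 was 0.136.

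At low glucose MRPL6 had 9.20, 9.0 and 9.64 in Alpha1, 9.59, 9.42 and 9.59 in T210A and 9.68, 9.60 and 9.57 in Snf1. T210A and Snf1 did not differ by more than their error (-0.08 ± 0.12), and Alpha1 was lower than Snf1 (-0.33 ± 0.12, adjusted p = 0.0462), a call that other settings lost, with an adjusted p of up to 0.323. MRP4 had 8.29, 8.51 and 8.61 in Alpha1, 8.59, 8.85 and 8.53 in T210A and 8.52, 8.70 and 8.61 in Snf1, and the 3 groups overlapped. In T210A MRPL6 rose by 0.52 ± 0.12, against 1.15 ± 0.12 in Snf1, and the response difference of -0.63 ± 0.17 was called (adjusted p = 0.00814), while that of MRP4, -0.72 ± 0.29, was not (adjusted p = 0.0605). The higher level of MRPL6 in T210A at high glucose enters its response difference.

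The level of the whole set was also followed array by array. The median over the 55 genes was 9.25, 9.0 and 9.37 in Alpha1 at low and 8.44, 8.29 and 8.32 at high glucose. It was 8.66, 8.57 and 8.79 in T210A at low and 8.31, 8.15 and 8.37 at high glucose, and 9.42, 9.43 and 9.45 in Snf1 at low and 8.42, 8.33 and 8.51 at high glucose. T210A at low glucose thus lay between its own high-glucose level and the low-glucose level of Snf1. In Alpha1 at low glucose replicate 3 was the highest of its group in 40 genes and replicate 2 the lowest in 42. The median SD of a member in that group was 0.222, against 0.221 over all genes, and in the other groups it lay between 0.0759 in Snf1 at low and 0.123 in Snf1 at high glucose.

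**Figure D4:**
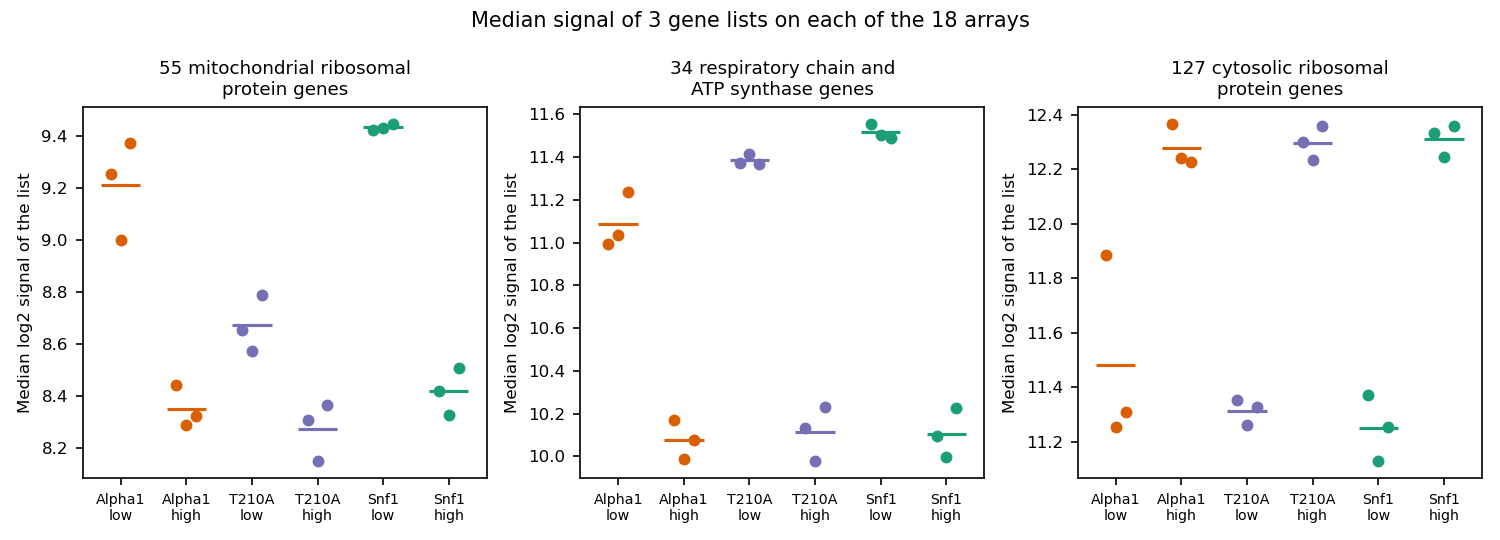
Median log2 signal of the mitochondrial ribosomal protein genes, the respiratory chain and ATP synthase genes and the cytosolic ribosomal protein genes on each of the 18 arrays (points, lines at the group means, separate y axes), low glucose left of high glucose in each strain. The mitochondrial ribosomal medians of T210A at low glucose (8.57 to 8.79) lie below those of Snf1 at low glucose (9.42 to 9.45), while the respiratory medians are 11.37 to 11.41 in T210A and 11.49 to 11.55 in Snf1 at low glucose.

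MRP8 and MRPL50 had some values unlike those of most members, but the response differences given here for them were not called. MRP8 rose strongly in all 3 strains, and its response in T210A did not differ from that in Snf1 at the threshold (-0.35 ± 0.16, adjusted p = 0.0995). MRPL50, related to bacterial L9 and chosen here after its values were seen, had 9.50, 9.57 and 9.41 in Alpha1 against 9.49, 9.43 and 9.39 in Snf1 at low glucose. These groups overlapped (0.06 ± 0.08), and its response was nominally larger in Alpha1 (0.27 ± 0.11, adjusted p = 0.149). In T210A it stood at 9.09, 8.89 and 9.0, below Snf1 by -0.45 ± 0.08 (adjusted p = 0.000339).

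Genes for mitochondrial ribosomal proteins that carry other names gave similar counts. Of 23 such genes, 22 rose at low glucose in Alpha1 (median 0.98), 14 in T210A (median 0.37) and 22 in Snf1 (median 1.06), and none fell, beside 34.3%, 37.7% and 34.7% of all genes called higher in these strains. At low glucose 22 of 23 were lower in T210A than in Snf1 (median -0.84, 26.5% of all genes), led by the small subunit genes RSM25 (-1.19 ± 0.13) and RSM26 (-1.10 ± 0.14) and by MHR1 (-1.05 ± 0.12), a large subunit protein first known for mitochondrial DNA recombination. The response was smaller in T210A than in Snf1 in 20 of 23 (median -0.70), as in 18.3% of all genes. The largest such difference was that of FYV4 (-1.28 ± 0.23), a small subunit gene on chromosome VIII. FYV4 was higher in T210A than in Snf1 at high glucose (0.72 ± 0.16, adjusted p = 0.0194), which enters its response difference.

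Other parts of the mitochondrial translation machinery were set beside the ribosomal proteins. Of 9 translation factor genes, 8 rose in each strain, beside 34.3%, 37.7% and 34.7% of all genes called higher in Alpha1, T210A and Snf1. The factor genes had medians of 1.16 in Alpha1, 0.68 in T210A and 1.29 in Snf1. At low glucose 7 were lower in T210A than in Snf1 (median -0.62, 26.5% of all genes), among them the elongation factor genes MEF1 (-0.82 ± 0.15) and MEF2 (-0.82 ± 0.15), the initiation factor gene IFM1 (-0.80 ± 0.08) and the release factor gene MRF1 (-0.78 ± 0.10). Of 17 genes for charging mitochondrial tRNAs, 17 rose in Alpha1, 15 rose and 1 fell in T210A, and 16 rose in Snf1. The shares of all genes called higher are those given above. At low glucose 11 of the 17 were lower and 1 higher in T210A than in Snf1 (median -0.47). Of all genes 26.5% were called lower in that comparison and 29.7% higher. MSF1, the phenylalanyl-tRNA synthetase gene, was at -0.87 ± 0.23. Genes of chromosome VIII were not taken out of these lists or those that follow. At high glucose RRF1 (0.75 ± 0.11), MSR1 (0.81 ± 0.14), DIA4 (0.68 ± 0.13) and GTF1 (0.39 ± 0.07) were higher in T210A than in Snf1. They were the only genes of the factor and tRNA lists called there.

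Of 13 genes for ribosome assembly and mitochondrial RNA, 11 rose in Alpha1, 9 rose and 1 fell in T210A, and 7 rose and 1 fell in Snf1, beside 34.3%, 37.7% and 34.7% of all genes called higher in these strains. At low glucose MAM33 (-1.27 ± 0.13) and RMD9 (-0.72 ± 0.07), whose product binds mitochondrial mRNAs, were among 4 that were lower in T210A than in Snf1, and MRM1, an rRNA methyltransferase gene (0.71 ± 0.14), was among 2 that were higher. Of 20 translational activator and membrane insertion genes, 7 were lower and 1 higher in T210A than in Snf1 at low glucose. The shares lower in these 2 lists are not far from the 26.5% of all genes, so nothing is read from the counts. Among the genes with the largest differences called, CBP6, needed for translation of cytochrome b, was lower by -1.25 ± 0.15 and MBA1, a ribosome receptor of the inner membrane, by -0.93 ± 0.11, while MDM38 was higher (0.92 ± 0.08). At high glucose MTG2, of the assembly list, was alone in these 2 lists in being called, and was higher in T210A than in Snf1 (0.87 ± 0.19).

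The nuclear genes of the respiratory chain and ATP synthase, whose partner subunits the mitochondrial ribosome makes, were set beside them as well. All 34 rose in each strain, with a median of 1.02 in Alpha1, 1.23 in T210A and 1.27 in Snf1, where 34.3%, 37.7% and 34.7% of all genes were called higher. The T210A response was smaller than that of Snf1 in 2 of them and larger in 0 (median -0.11), against 43 of 55 mitochondrial ribosomal protein genes (median -0.66). Of all genes 18.3% had a smaller response in T210A and 21.2% a larger one. At low glucose 6 of the 34 were lower and 1 higher in T210A than in Snf1 (median -0.13), a smaller share than the 26.5% of all genes called lower, and with the replicate block, which pairs the arrays of these groups, 9 were lower and 2 higher. The succinate dehydrogenase genes SDH1 (-0.87 ± 0.16), SDH4 (-0.67 ± 0.14) and SDH2 (-0.52 ± 0.13) had the largest differences among these. At high glucose COX6 was higher in T210A than in Snf1 (0.57 ± 0.09), the highest value of the list there. In Alpha1 23 of the 34 were lower than in Snf1 at low glucose (median -0.36), beside 12.9% of all genes, and 5 when those groups were fitted on their own. The 127 cytosolic ribosomal protein genes ran the other way, with 122 lower at low glucose in Alpha1 (median -0.70), 123 in T210A (median -0.90) and 120 in Snf1 (median -0.85), and 0 higher in each strain. Of all genes 29.2%, 32.8% and 32.7% were called lower in these strains.

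Among the regulators, HAP4 had 10.39, 10.17 and 10.46 in Alpha1 at low and 7.73, 7.69 and 7.72 at high glucose. It had 10.19, 10.38 and 10.19 in T210A at low and 7.84, 7.97 and 7.85 at high glucose, and 11.00, 10.98 and 10.93 in Snf1 at low and 8.12, 8.22 and 7.93 at high glucose. HAP4 rose in each strain, by 2.62 ± 0.08 in Alpha1, 2.37 ± 0.08 in T210A and 2.88 ± 0.08 in Snf1, and at low glucose it was lower than in Snf1 both in Alpha1 (-0.63 ± 0.08) and in T210A (-0.71 ± 0.08). HAP2, a DNA-binding subunit of the same complex, had 6.74, 6.54 and 6.98 in T210A at low and 6.50, 6.71 and 6.70 at high glucose. These overlapped (0.12 ± 0.12, not called), against a rise of 0.58 ± 0.12 in Alpha1 and 1.07 ± 0.12 in Snf1, and the T210A response differed from that of Snf1 by -0.95 ± 0.17 (adjusted p = 0.000639). The T210A and Snf1 responses of HAP4 were also called different. HAP3 and HAP5, unlike HAP2, were called different between glucose levels in T210A as in the other strains. At low glucose HAP1 and HAP3 were called different between T210A and Snf1 too. PUF3 was dim, with group means from 3.63 to 4.32, and rose by 0.46 ± 0.08 in Alpha1, 0.38 ± 0.08 in T210A and 0.45 ± 0.08 in Snf1, of which the T210A value turned to -0.18 (adjusted p = 0.175) with quantile normalization.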

How the data were processed

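RNA from 18 samples, 3 for each of 6 groups, had been hybridized to Affymetrix yeast arrays. The authors deposited log2 signals, made with RMA and the affy package per the submitters' processing notes; versions are not given in the sources used here. No further scaling was applied. Of 5716 probe sets, 5498 named 1 gene and 218 none, 12 symbols were updated, and where a gene had more than 1 probe set (47 genes) the brightest on average was taken, leaving 5449 genes. Symbols and chromosomes came from RefSeq and the platform annotation. All columns were matched to samples, and no arrays were identical (smallest SD of a difference between a pair of arrays 0.146).

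Group means over all 18 arrays were fitted with limma 3.58.1 in R 4.3.3 (12 residual degrees of freedom, prior 1.18), with Benjamini-Hochberg adjustment over all genes in each of 12 comparisons. The procedure was tested on simulated data. The number of arrays limits the precision. The SE pools the variance of a gene over groups and understates the spread in Alpha1 at low glucose.

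The members and lists were chosen with earlier results of these data known. The genes named are the 5 largest called differences per direction and comparison (4 for response differences), the chromosome VIII members, up to 5 uncalled members closest to 0 per glucose response, MRP8, up to 4 called members of each other list, HAP4, PUF3 and SNF1. The rule also took the 4 highest and 4 lowest members by mean, of which the extremes are given.

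Alternatives comprised median centring, quantile normalization, a block for the replicate number, a trended robust prior, fitting the compared groups on their own, a filter at a mean of 5, the mean of all probe sets, array weights, omission of chromosome VIII genes and omission of each array. Deviations of same-numbered arrays correlated above 0.1 in all 3 pairs in 8 of 15 pairs of groups, taken as pairing there. Among the groups compared directly these were Alpha1 low with high, Snf1 low with high, Alpha1 with T210A at low glucose, and T210A with Snf1 at either level (lowest 0.38 at high glucose).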

Additional observations from a re-analysis of the deposited data

Results flagged for a closer look

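Strain differences in the response to low glucose were singled out because the difference itself was tested and passed. The T210A response was smaller than the Snf1 response in 43 of the 55 genes. The largest such differences were -1.06 for MRPL40 and -1.02 for each of MRPL15, MRPS5 and MRPL39. That of MRPL6 on chromosome VIII was -0.63. MRPL6 had means of 9.53 in T210A and 9.61 in Snf1 at low glucose, and of 9.01 and 8.46 at high glucose. Its higher level in T210A at high glucose enters that difference. The Alpha1 response was larger than the T210A response in 29 genes, with MRPL8 at 0.94, MRPL40 at 0.91, MRPL39 at 0.85 and MRPL15 at 0.83. Groups of 3 arrays are too small for a check of single arrays standing apart.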

How the results depend on the processing

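Of the 75 differences of single members named, the 50 called kept their sign under every other setting that was run for them. The other settings numbered 27 in all, but an array was left out only in comparisons that used its group. A change of sign under some setting was seen in 11 uncalled differences, 5 of them in the T210A glucose response (MRPL13, MRPL37, MRPL32, MRP4 and MRPL20, with median centring and quantile normalization). Of the recomputed values 21 lost their call and 27 gained one. The count of genes higher at low glucose in T210A was 24 with median centring, against 39. Alpha1 against Snf1 at low glucose, with 22 lower, gave 34 with the replicate block, 9 with array weights, 2 with the compared groups fitted on their own and 12 to 32 with 1 array left out. For T210A against Snf1 at high glucose, 1 call became 2 with the trended prior, quantile normalization, median centring or the filter on dim genes, 5 with the replicate block (2 higher, 3 lower), 8 with array weights (2 higher, 6 lower) and 0 without chromosome VIII genes. With 1 array left out it was 0 to 1, and the single call was a lower one without Snf1 high replicate 2. Alpha1 against T210A at high glucose, with 2, gave 4 with the replicate block or array weights and 0 without chromosome VIII genes. Alpha1 against Snf1 at high glucose, with 0, gave 4 lower with array weights. The Alpha1 and Snf1 responses differed in 0 genes, in 4 with the replicate block and in 0 to 11 with 1 array left out, and the Alpha1 and T210A responses in 29 genes and in 19 to 38. PUF3 in T210A turned to -0.18 with quantile normalization. The causes were not tested. The replicate block changed no other count of members by more than 1.5 times. Dim signals limit PUF3, and with 3 arrays per group small differences may be missed.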
